A study of Mus musculus with 4 samples.

Results

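A set of 10 genes for secreted factors of the senescence-associated kind was followed in irradiated mouse tumour cells: the interleukins and growth cytokines Il6, Lif, Il11, Csf1, Csf2, Il1a, Il15, Il18 and Il33, and the receptor antagonist Il1rn. They were listed by name, as members of the secretory programme of senescent cells, with earlier results of these data known. Of the 10 genes 9 have a row among the 26561 genes of the table, and Il33, an alarmin of the interleukin-1 family, was not analysed here. Messenger RNA was sequenced from MC38, a wild-type mouse colon carcinoma line labelled as epithelial. The nonIR group (2 libraries) was left unirradiated, and the IR group (2 libraries) received 30 Gy of X-rays in 1 fraction and was collected 60 h later. Both groups are cultured cells of 1 line with no host cells described, and no collection time is given for the nonIR group, so that time and density in culture cannot be told apart from the dose. The sources used here do not tie the 2 libraries of a group to separate cultures. The p-values rest on the spread between these libraries alone, which may be technical. In edgeR that spread was pooled over genes, so a p-value or SE barely reflects the spread of a gene's own libraries.

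Cells that stop dividing for good after DNA damage are known to release cytokines, growth factors and proteases, a state called the senescence-associated secretory phenotype. Interleukin-6, leukemia inhibitory factor (Lif) and interleukin-11 act through receptors that share the signalling chain gp130 (Il6st) and activate JAK kinases and STAT3. Csf1 and Csf2 support macrophages and granulocytes, and interleukin-15 supports T and natural killer cells. The interleukin-1 family (Il1a, Il18, Il33) acts through receptors that signal by Myd88 to NF-kB. Il1rn is the natural antagonist at the receptor of interleukin-1 itself.

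Total counts per library ran from 26059171 to 29881492. Genes with any count numbered 19413 and 19531 in the nonIR and 22713 and 22663 in the IR libraries. A rise from near 0 to a few counts, as in some genes below, has to be read against this difference over the whole table. Values below are counts, or CPM (counts per 1e+06 counts of the library after TMM scaling) as the mean of a group's 2 libraries ± SD. A gene rose or fell where edgeR's quasi-likelihood test gave a Benjamini-Hochberg adjusted p under 0.05 over the 15298 genes tested. By that rule 60.7% of all tested genes changed, 30.4% higher and 30.3% lower in the irradiated cells, against which each count below has to be read. Larger changes were not balanced, since 12.4% of tested genes rose and 3.47% fell by at least 2-fold. The 8 epithelial markers summed to 36.5 to 38.5 CPM in the nonIR and 70.1 to 76.0 CPM in the IR libraries. Of these, Cdh1 had 998 and 1009 counts in the nonIR and 2173 and 1798 in the IR libraries, whereas Epcam had 0 counts in 3 libraries and 1 in the other, and Krt18 had 0 in both nonIR libraries. Of 8 myeloid markers 6 have a row, and their summed level was 5.10 to 6.62 CPM in the nonIR and 7.99 to 8.40 CPM in the IR libraries. Cd14 made up most of this sum, with 159 and 135 counts in the nonIR and 195 and 168 in the IR libraries. Ptprc had 10 and 6 counts in the nonIR and 24 and 17 in the IR libraries. Adgre1, a defining macrophage gene, was at 0 in 3 libraries and had 2 counts in IR replicate 2. Cd3e, a defining T cell gene, was at 0 in 3 libraries and had 1 count in IR replicate 1, as did Cd3g. Cd4 had 13 and 3 counts in the nonIR and 10 and 5 in the IR libraries. Trac had 5 and 1 in the nonIR and 7 and 0 in the IR libraries. Lyz2, a lysozyme gene of myeloid cells, had 0 and 2 counts in the nonIR and 23 and 20 in the IR libraries. The 7 fibroblast markers summed to 959 to 967 CPM in the nonIR and 1269 to 1300 CPM in the IR libraries, with Col1a2 the most abundant and Thy1 at 0 in both nonIR libraries. The 4 T and natural killer markers with a row summed to at most 0.655 CPM in any library, and the 4 endothelial markers to 1.92 to 2.58 CPM in the nonIR and 6.21 to 6.55 CPM in the IR libraries. The part of other cell types in the results below was not tested, and in bulk RNA fewer cells with a transcript and less transcript per cell cannot be told apart.

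Irradiated cells held more Il15 and Il18 transcript, a little Il6 where unirradiated cells held almost none, and less Il11. Il15 rose 3.20-fold and Il18 rose 2.93-fold, Il6 went from 2 to 27 counts over the group, and Il11 fell 1.82-fold. Csf1, by far the most abundant of the cytokines, differed by 1.02-fold and did not pass. Past the filter on low counts came 6 of the 9 genes, of which 3 rose (Il6, Il15, Il18), 1 fell (Il11) and 2 did not pass (Lif, Csf1). Of all tested genes 30.4% rose and 30.3% fell. Il6 came past that filter only through its IR libraries, so that its presence among the tested genes already depended on a difference. Its place among the genes that rose, and its adjusted p below, carry that limit. Csf2, Il1a and Il1rn were below the filter and are given as counts. In 5 of the 9 genes both IR libraries lay above both nonIR libraries and in 1 both lay below, where 33.4% and 24.7% of all genes in the table did so.

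**Figure D1:**
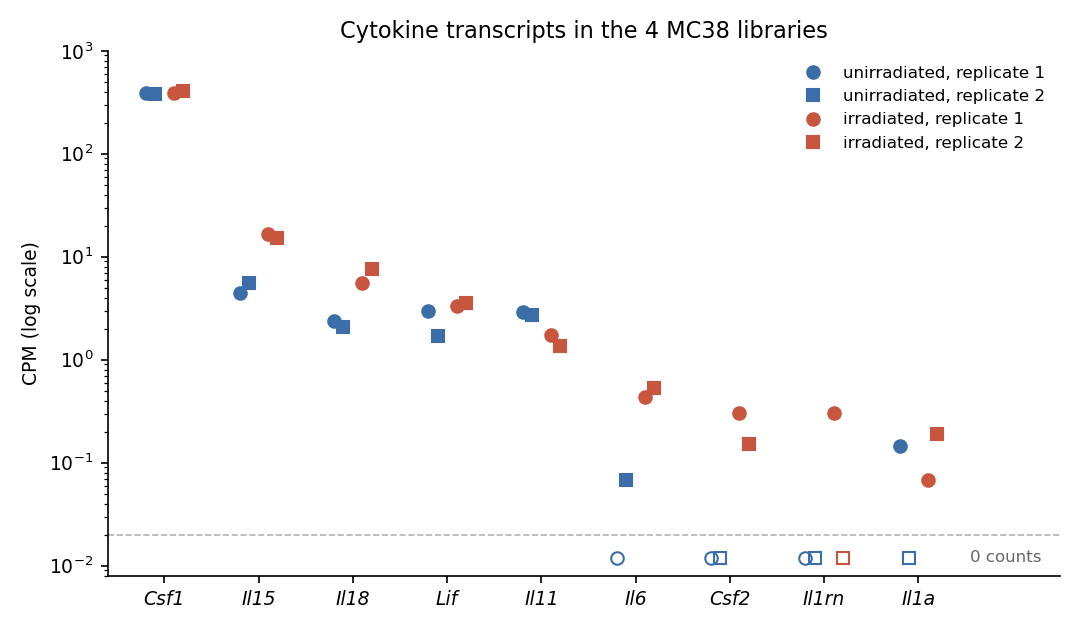
CPM of each cytokine gene (log scale) in the 4 libraries, with circles for replicate 1 and squares for replicate 2. Blue marks unirradiated and red irradiated cells, and open symbols under the dashed line are libraries with 0 counts. Il15 and Il18 have both red symbols above both blue ones, Il11 has both below, and Csf1 lies between 384 and 404 CPM in all 4.

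Of the 3 cytokines that signal through gp130, Il6 rose, Il11 fell and Lif did not pass. The call for Il6 is limited by its entry past the filter through the IR libraries alone. Il6 (ENSMUSG00000025746, chromosome 5, 30013114 to 30019981, plus strand, GRCm38) had 0 and 2 counts in the nonIR libraries and 13 and 14 in the IR libraries. Both IR libraries were above both nonIR ones, and the 2 IR libraries were close to each other. The level was 0.0343 ± 0.0484 CPM in the nonIR and 0.482 ± 0.0641 CPM in the IR group (SD, n = 2 in each group). The ratio of the counts per scaled library was 13.6, and its exact Clopper-Pearson 95% interval, for counting error alone, ran from 3.41 to 118. On the log2 scale the fitted difference was 3.62 with an SE of 1.11 (edgeR, adjusted p = 0.00245), and its size depends on the prior count since 1 nonIR library is at 0. The adjusted p was 0.0934 without nonIR replicate 1 (log2 fold change 2.72) and 0.0718 without IR replicate 2. Without nonIR replicate 2, the only nonIR library with counts, the fitted log2 fold change was 6.76. Of 2426 tested genes with a mean under 1 CPM, the range in which Il6 falls, 29.8% rose and 3.71% fell.

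The Il6 promoter is printed because it holds matches to the AP-1, NF-kB and C/EBP patterns. RefSeq (GRCm38.p6) gives 1 start site for Il6, and the window runs from 250 bases before it to 50 bases after (chr5:30012864-30013163, plus strand). Capitals mark matches to the AP-1 pattern TGANTCA and to the NF-kB pattern GGGNNNNNCC on either strand. The match GGGATTTTCC, 44 bases before the start site, overlaps a second match to the same pattern on the other strand. A match to the C/EBP pattern TTNNGNAA, TTGTGCAA at 128 bases before the start site, is left in lower case. The NF-kB pattern is held by 50.8% and the C/EBP pattern by 40.7% of all 32851 windows of this length in the table, and the AP-1 pattern by 7.81%.
Il6 promoter: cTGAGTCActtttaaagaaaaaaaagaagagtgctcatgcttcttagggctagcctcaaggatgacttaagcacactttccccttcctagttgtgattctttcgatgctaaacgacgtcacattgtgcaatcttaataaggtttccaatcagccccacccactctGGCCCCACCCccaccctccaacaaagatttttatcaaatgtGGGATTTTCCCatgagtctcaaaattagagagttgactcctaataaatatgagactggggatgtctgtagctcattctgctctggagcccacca

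Lif (ENSMUSG00000034394, chromosome 11, 4257557 to 4272514, plus strand), which keeps stem cells undifferentiated and acts on many tissues, had 81 and 50 counts in the nonIR and 98 and 94 in the IR libraries. Both IR libraries were above both nonIR ones, but nonIR replicate 1 was nearer to them than to its own replicate. The level was 2.33 ± 0.873 CPM in the nonIR and 3.42 ± 0.176 CPM in the IR group (SD, n = 2). Lif did not pass, the fitted log2 difference being 0.55 ± 0.29 (SE; edgeR, adjusted p = 0.0867). Without nonIR replicate 1 it passed, with a log2 fold change of 0.98 and adjusted p = 0.0155, and without nonIR replicate 2 the log2 fold change was 0.20.

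Il11 (ENSMUSG00000004371, chromosome 7, 4772373 to 4782859, minus strand), a cytokine tied to fibrosis and to epithelial tumours, had 80 counts in each nonIR library and 52 and 36 in the IR libraries. Both IR libraries were below both nonIR ones. Il11 fell from 2.83 ± 0.121 to 1.55 ± 0.276 CPM (SD, n = 2). The log2 fold change was -0.86 ± 0.34 (SE), and edgeR gave an adjusted p = 0.0194. DESeq2 gave adjusted p = 0.0643, and edgeR gave 0.0675 without nonIR replicate 1 and 0.13 without IR replicate 2, so that the call rests on those libraries and on the tool. The direction was down under all 9 alternatives, with log2 fold changes from -1.06 to -0.70.

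RefSeq gives 2 start sites for Il11. The window of the downstream one (chr7:4778092-4778391, minus strand) is printed because it holds the AP-1 pattern, in capitals, and none of the NF-kB, C/EBP, ISRE core, GAS and CRE patterns. The window of the upstream start site (chr7:4782808-4783107) holds the NF-kB pattern, with no AP-1 match.
Il11 promoter, downstream start: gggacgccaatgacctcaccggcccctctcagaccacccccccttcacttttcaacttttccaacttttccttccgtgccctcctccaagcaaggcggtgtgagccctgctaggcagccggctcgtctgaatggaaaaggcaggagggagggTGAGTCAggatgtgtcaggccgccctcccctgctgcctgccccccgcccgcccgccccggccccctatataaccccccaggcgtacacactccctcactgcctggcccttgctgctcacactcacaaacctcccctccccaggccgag

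Of the 2 colony-stimulating factors, Csf1 was abundant in all 4 libraries and Csf2 was detected only in the IR libraries. Csf1 (ENSMUSG00000014599, chromosome 3, 107741048 to 107760469, minus strand), which is needed for the survival of macrophages, had 10768 and 11198 counts in the nonIR and 11590 and 10715 in the IR libraries. Scaled to library size the groups overlapped, at 392 and 384 CPM against 389 and 404 CPM. Csf1 did not pass, the fitted log2 difference being 0.03 ± 0.03 (SE; edgeR, adjusted p = 0.388). Scaled by library totals alone, which shifts all genes, it passed with a log2 fold change of 0.09 and adjusted p = 0.00701. The exact 95% counting interval of the ratio, 1.003 to 1.041, does not include the replicate spread.

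Csf2 (ENSMUSG00000018916, chromosome 11, 54247271 to 54249667, minus strand), which encodes GM-CSF, had 0 counts in both nonIR libraries and 9 and 4 in the IR libraries. Both IR libraries were above both nonIR ones, by few counts. With 3 counts over the nonIR group as the floor, the observed level of Csf2 in the IR group was 4.36-fold higher. This takes the IR counts as exact, so it is not a lower bound on the difference. Csf2 was below the filter, and with no filter edgeR gave adjusted p = 0.0632 over 26561 genes. The 0 in the nonIR group allows a level of up to 0.0529 CPM.

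In the interleukin-1 family, Il18 was expressed and rose, and the other 2 genes with a row were close to undetected. Il18 (ENSMUSG00000039217, chromosome 9, 50554827 to 50581840, plus strand), a cytokine stored as an inactive precursor and known to drive interferon gamma release by lymphocytes, had 66 and 60 counts in the nonIR and 165 and 200 in the IR libraries. The groups did not overlap, and the IR libraries were further apart than the nonIR ones. Il18 rose from 2.23 ± 0.245 to 6.54 ± 1.41 CPM (SD, n = 2). The log2 fold change was 1.55 ± 0.24 (SE), and edgeR gave an adjusted p = 8.24e-10. It passed under all 9 alternatives, with log2 fold changes from 1.31 to 1.75.

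The Il18 window (chr9:50554450-50554749, plus strand) is printed as a contrast to that of Il6, since none of the 6 patterns searched is in it. The window follows the RefSeq start site and ends before the GENCODE start of the gene at 50554827. No match says only that these letters are not in this window.
Il18 promoter: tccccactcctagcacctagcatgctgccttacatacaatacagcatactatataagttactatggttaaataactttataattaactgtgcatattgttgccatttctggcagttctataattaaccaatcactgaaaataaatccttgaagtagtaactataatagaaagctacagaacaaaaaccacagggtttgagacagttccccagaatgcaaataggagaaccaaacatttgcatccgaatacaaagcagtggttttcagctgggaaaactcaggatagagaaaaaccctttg

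Il1a (ENSMUSG00000027399, chromosome 2, 129299610 to 129309972, minus strand), the membrane-bound and nuclear interleukin-1 often placed at the top of the secretory programme, had 4 and 0 counts in the nonIR and 2 and 5 in the IR libraries. The groups overlapped. The ratio was 1.76 with an exact 95% counting interval of 0.448 to 8.20, so no difference was detectable at this depth. Its exons overlap Gm14023 on the other strand, which has 20 counts over the 4 libraries to the 11 of Il1a, and without strand these cannot be told apart. Il1b, the secreted interleukin-1, had no count in either nonIR library and 1 in each IR library, and is named with its values already seen. Il1rn (ENSMUSG00000026981, chromosome 2, 24336853 to 24351494, plus strand), the antagonist that occupies the interleukin-1 receptor without signalling, had 0 counts in 3 libraries and 9 in IR replicate 1. The 9 counts come from 1 library, so the groups overlap at 0. Against the same floor the observed level over the IR group was 3.02-fold higher, which again takes the IR counts as exact and rests on 1 library. Without IR replicate 1, Il1rn is at 0 in every library, and with no filter edgeR gave adjusted p = 0.164.

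Il15 (ENSMUSG00000031712, chromosome 8, 82331632 to 82403222, minus strand) had the smallest standard error of the 4 cytokine genes that passed the test. It encodes a cytokine that is presented by neighbouring cells, bound to its own receptor chain Il15ra, to natural killer and CD8 T cells. Counts were 122 and 162 in the nonIR and 495 and 408 in the IR libraries, with no overlap between the groups. Il15 rose from 4.99 ± 0.785 to 16.0 ± 0.890 CPM (SD, n = 2). The log2 fold change was 1.68 ± 0.16 (SE), and edgeR gave an adjusted p = 1.28e-25. It passed under all 9 alternatives, with log2 fold changes from 1.51 to 1.84.

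Divided by the length of all annotated exons, levels can be compared roughly between genes, since the transcripts expressed may be shorter. In nonIR cells Csf1 stood at 73.4 CPM per kilobase, followed by Il15 at 2.21 and Il18 at 2.16, whose libraries overlapped, then Il11 at 1.36 and Lif at 0.536. In IR cells Csf1 stood at 75.1 CPM per kilobase, Il15 at 7.08 and Il18 at 6.34, again with overlapping libraries, and Lif and Il11 overlapped at 0.785 and 0.746. By this measure Il11 was above Lif in both nonIR libraries, and the 2 genes were not separated in the IR libraries. The order depends on the length used. In CPM, Il11 was at 2.91 and 2.74 and Lif at 2.95 and 1.71 in the nonIR libraries. In the IR libraries Il11 was at 1.75 and 1.36 CPM and Lif at 3.29 and 3.54 CPM. Csf2 (0.283), Il6 (0.199), Il1a (0.0647) and Il1rn (0.0273) came last in IR cells, with Csf2 and Il6 overlapping and Il1a and Il1rn overlapping. Their levels rest on 7 to 27 counts.

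An AP-1 pattern (TGANTCA) was found in the promoter windows of 5 of the 9 cytokine genes in the RefSeq table (Il6, Lif, Il11, Il1a and Il1rn), where 8.97% of the table's 27025 genes have one in any window. The lines give each match in capitals with up to 12 bases on either side, cut short for Il6 where its window begins. The matches lie 249 (Il6), 228 (Lif), 98 (Il11), 12 (Il1a) and 141 (Il1rn) bases before the start site. Of these genes Il6 rose, Il11 fell, Lif did not pass, and Il1a and Il1rn were not tested. The NF-kB pattern was found in 6 of the 9 genes, where 53.5% of the table's genes have it, and the C/EBP pattern in 5, where 44.1% do. The ISRE core pattern GAAANNGAAA, the GAS pattern TTCNNNGAA and the CRE pattern TGACGTCA were in none of the 13 windows of these genes, and are in 3.44%, 8.30% and 1.79% of all windows.
Il6: cTGAGTCActtttaaagaaa
Lif: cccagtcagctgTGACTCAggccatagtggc
Il11: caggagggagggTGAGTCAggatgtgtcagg
Il1a: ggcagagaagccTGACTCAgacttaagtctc
Il1rn: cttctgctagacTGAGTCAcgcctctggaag

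Most tested receptors of these cytokines rose. Of 17 receptor genes listed, 16 have a row and 11 were tested, of which 7 rose and 1 fell, or 63.6% and 9.09% against 30.4% and 30.3% of all genes. Their median log2 fold change was 0.89, against 0.01 over all tested genes. Il1r1, the signalling receptor of Il1a, had 82 and 112 counts in the nonIR and 473 and 425 in the IR libraries. It rose 4.68-fold (2.22 ± 0.17 SE on the log2 scale, edgeR adjusted p = 7.72e-38). Its partner chain Il1rap, which interleukin-1 and interleukin-33 receptors share, had 2445 and 2761 against 1770 and 1527 counts and fell 1.57-fold (-0.65 ± 0.06 SE on the log2 scale, adjusted p = 6.18e-30). The 2 chains of the same receptor thus went in opposite directions. Il1rl1, which binds interleukin-33, rose 1.61-fold (adjusted p = 0.0423), a call lost under 6 of the 9 alternatives, among them leaving out nonIR replicate 2 (adjusted p = 0.22), IR replicate 1 (0.0618) or IR replicate 2 (0.231).

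All 3 tested chains of the Il6 and Lif receptors rose. Il6ra, the chain that binds interleukin-6, went from 51.6 ± 1.34 to 99.0 ± 0.274 CPM (SD, n = 2; log2 fold change 0.94, SE 0.06, adjusted p = 1.81e-60). Il6st, the shared gp130 chain, rose 1.58-fold from 222 ± 0.993 to 351 ± 3.45 CPM (adjusted p = 4.88e-80). Lifr rose 2.73-fold, from 89 and 77 counts to 210 and 239 (adjusted p = 7.48e-11). Il11ra1, which binds interleukin-11, was at 15.1 ± 0.0303 and 15.2 ± 0.0987 CPM and did not pass (adjusted p = 0.939), and 8 bases of its exons overlap Ccl27a on the other strand. Il18rap, the second chain of the interleukin-18 receptor, rose 3.34-fold from 39 and 35 to 131 and 115 counts (edgeR, adjusted p = 4.98e-08). By contrast Il18r1, the chain that binds the cytokine, had 0 and 1 counts in the nonIR and 0 and 1 in the IR libraries. Il15ra was at 9.56 ± 0.733 and 11.2 ± 0.624 CPM and did not pass (0.23 ± 0.15 SE on the log2 scale, adjusted p = 0.174). The common gamma chain Il2rg, which signals for interleukin-15, rose 1.88-fold from 40 and 46 to 97 and 65 counts (adjusted p = 0.0126), but not without nonIR replicate 1 (0.0548) or without IR replicate 1 (0.2). Exons of Il2rg share 728 bases with Gm20489 on the same strand, which has 6.45% as many counts. Il2rb, also tested as a receptor gene, had 16 and 8 counts in the nonIR and 27 and 18 in the IR libraries. Il2rb did not pass (edgeR, adjusted p = 0.223). Csf1r, the receptor of Csf1, had 1, 0, 0 and 2 counts although its exons overlap the far more abundant Hmgxb3 on the other strand. Csf2ra had 1 count in all.

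**Figure D2:**
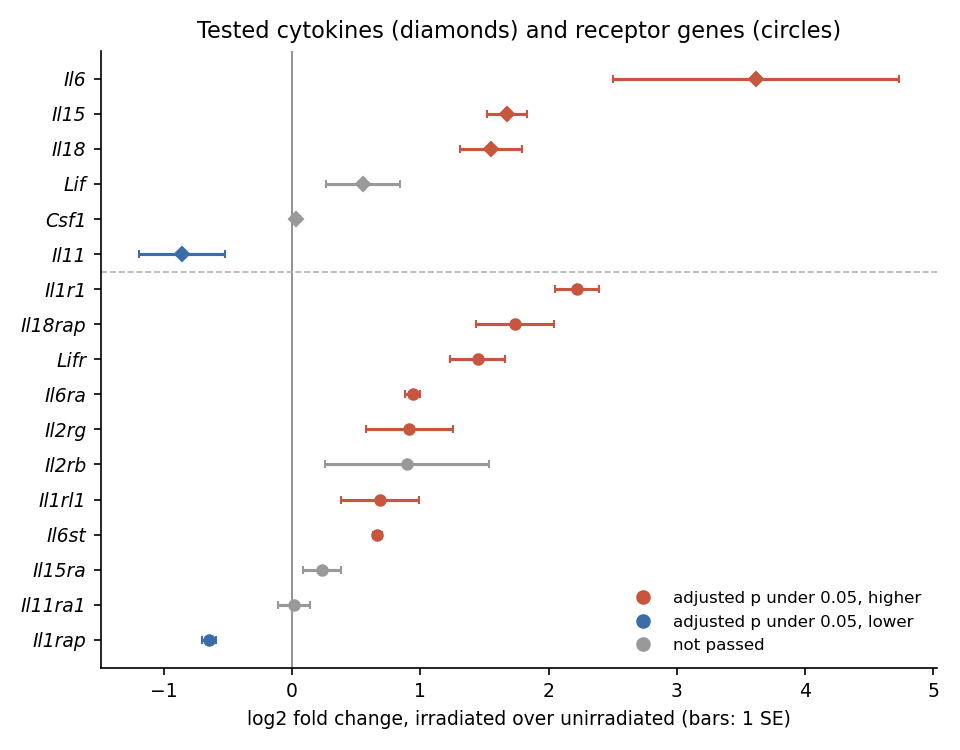
Fitted log2 fold changes, irradiated over unirradiated, of the 6 tested cytokines (diamonds, top) and the 11 tested receptor genes (circles, bottom), with bars of 1 SE. Red and blue passed at adjusted p under 0.05 and grey did not, and Il11 and Il1rap are the 2 genes in blue.

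Interleukin-1 family precursors and membrane-bound cytokines are cut by proteases before or during release. Of 10 tested genes for processing, release and binding, 4 rose (Casp1 among them) and 3 fell, with a median log2 fold change of 0.09. These are 40.0% and 30.0%, against 30.4% and 30.3% of all tested genes. Casp4, an inflammatory caspase that senses cytosolic lipopolysaccharide, had 263 and 319 counts in the nonIR and 1207 and 847 in the IR libraries and rose 3.53-fold (1.82 ± 0.11 SE on the log2 scale, edgeR adjusted p = 7.42e-64). Casp1 encodes the caspase that matures interleukin-18, and is named with its values already seen. Its nonIR libraries held 0 and 3 counts and its IR libraries 28 and 33, so that, like Il6, it came past the filter only through its IR libraries and had to differ. Its ratio was 20.5, with an exact 95% counting interval of 6.68 to 102. Without nonIR replicate 2, which holds its 3 counts, the fitted log2 fold change moved from 4.26 to 7.93, and without nonIR replicate 1 it was 3.34. Adam10, a sheddase of membrane proteins such as Il6ra, rose 1.34-fold from 127 ± 5.47 to 170 ± 1.28 CPM (adjusted p = 1.31e-21). Il18bp, the secreted decoy that neutralises interleukin-18, was at 1.77 ± 0.348 and 1.55 ± 0.201 CPM and did not pass (adjusted p = 0.686), and its exons overlap the far more abundant Numa1 on the other strand.

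Genes upstream of these cytokines moved in both directions, 7 of 17 tested higher and 7 lower, with a median log2 fold change of -0.05. Each direction holds 41.2%, against 30.4% higher and 30.3% lower of all tested genes. Fosl1, an AP-1 subunit of the FOS family, had 4043 and 4031 counts in the nonIR and 1164 and 1143 in the IR libraries. It fell 3.47-fold (-1.80 ± 0.06 SE on the log2 scale, edgeR adjusted p = 1.48e-225). The AP-1 genes did not move together, since Jun fell (log2 fold change -0.35) and Junb rose (1.19). Cebpd, a C/EBP factor of the acute phase response, rose 3.11-fold from 198 and 179 to 641 and 530 counts (adjusted p = 2.20e-31). Among NF-kB genes Relb (log2 fold change 0.95), Nfkb2 (0.49) and Rela (0.19) rose, and Nfkb1 (-0.29) and Nfkbiz (-0.23) fell. Nfkbiz did not pass with DESeq2 (adjusted p = 0.0717) or, in edgeR, with library totals alone (0.0544). Jun, Junb and the NF-kB genes were chosen after their values were seen. On the other strand, exons of Fosl1 overlap Ccdc85b, which has 55.2% as many counts, those of Cebpd overlap Spidr (447%), those of Junb overlap Prdx2 (312%), those of Nfkb2 overlap Psd (19.0%) and those of Jun overlap Junos (18.6%), so both their levels and their changes are uncertain.

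Cytokine messages are short-lived and controlled by proteins that bind them. Of 8 such decay and stability factors 4 rose and 4 fell, with a median log2 fold change of -0.02. Hnrnpd, which encodes the AU-rich element binding protein AUF1, fell from 6501 and 7193 counts to 2439 and 2237, 2.91-fold (-1.54 ± 0.04 SE on the log2 scale, edgeR adjusted p = 1.96e-271). Arid5a, known to stabilise Il6 messenger RNA, rose 1.54-fold from 27.9 ± 1.65 to 42.9 ± 0.382 CPM (adjusted p = 2.46e-13). The number that rose was 2 without nonIR replicate 2.

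Downstream of the receptors, 8 of 12 tested genes rose and 2 fell, with a median log2 fold change of 0.31. These are 66.7% and 16.7%, against 30.4% and 30.3% of all tested genes. Pim1, a kinase gene induced by STAT signalling, rose 2.70-fold from 547 and 472 to 1414 and 1323 counts (1.43 ± 0.09 SE on the log2 scale, edgeR adjusted p = 5.93e-59). The 2 that fell were the feedback inhibitors Socs3 (log2 fold change -0.57, adjusted p = 6.21e-10) and Socs1 (-0.39, adjusted p = 0.011), named after their values were seen. Socs1 did not pass with DESeq2 (adjusted p = 0.0604), without nonIR replicate 1 (0.153) or without IR replicate 2 (0.0932).

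**Figure D3:**
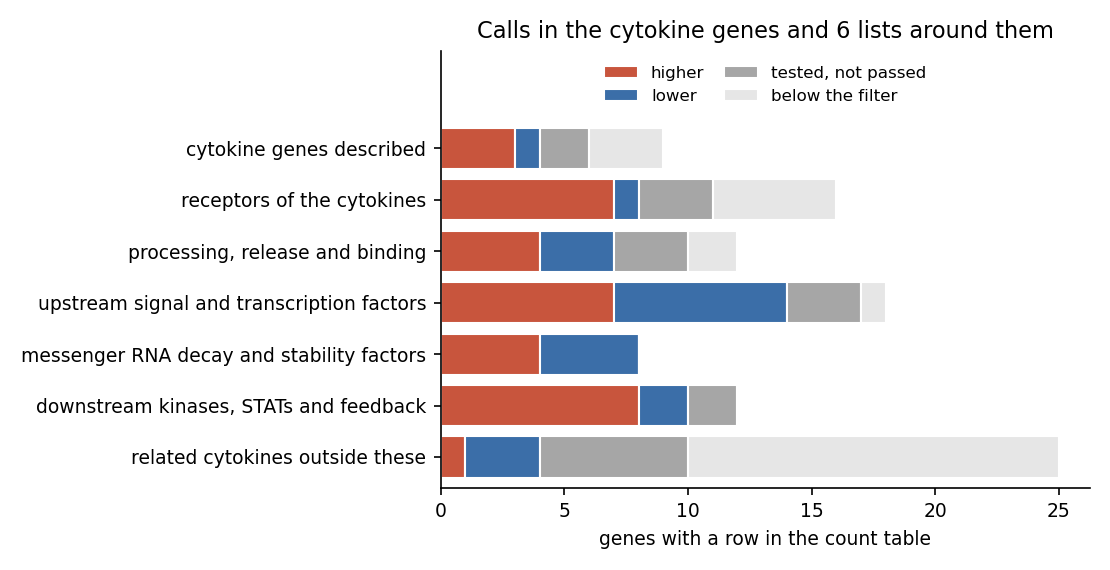
Number of genes with a row in the table that rose, fell, did not pass or were below the filter, for the 9 cytokine genes and 6 lists of related genes. Red covers 7 of 11 tested receptor genes and 8 of 12 tested downstream genes, where 30.4% of all tested genes rose. Most related cytokines, 15 of 25, are below the filter.

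Most other cytokine genes were below the filter. Of 32 further cytokine genes 25 have a row, 15 of these were below the filter and 10 were tested, of which 1 rose and 3 fell, against 30.4% and 30.3% of all genes. Their median log2 fold change was 0.01. Kitl, the stem cell factor that binds KIT, rose 2.07-fold from 1056 and 1130 to 2447 and 2066 counts (1.05 ± 0.06 SE on the log2 scale, edgeR adjusted p = 1.37e-60). Thpo, thrombopoietin, fell 2.75-fold from 169 and 226 to 65 and 76 counts (-1.47 ± 0.23 SE on the log2 scale, adjusted p = 1.04e-09), and Chrd, whose exons it overlaps on the other strand, has 173% as many counts. Clcf1, another cytokine of the gp130 group, fell 1.86-fold (adjusted p = 8.12e-37), and Il34, the second ligand of the Csf1 receptor, was at 83.7 ± 1.54 and 80.2 ± 6.56 CPM and did not pass (adjusted p = 0.326). Il16 also fell (log2 fold change -0.48), but not without nonIR replicate 2 (adjusted p = 0.0573) or IR replicate 1 (0.0701), and its exons overlap Stard5 on the other strand, which has 101% as many counts. Clcf1, Il34 and Il16 are named with their values already seen.

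**Figure D4:**
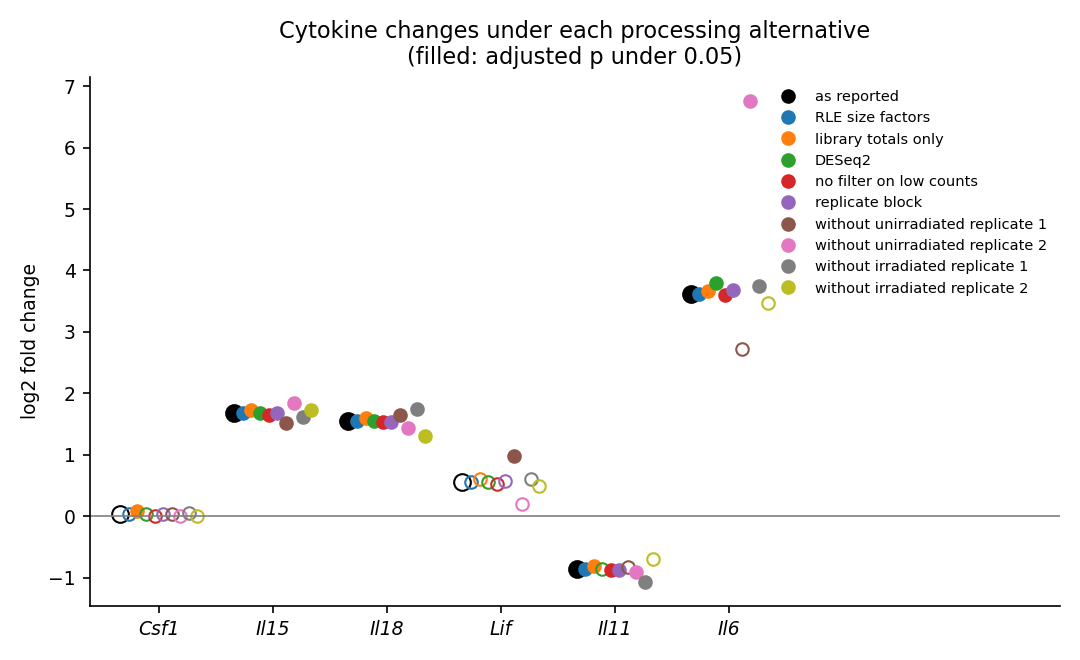
Fitted log2 fold changes of the 6 tested cytokines as reported (black) and under 9 alternatives, 1 colour each. Filled symbols have an adjusted p under 0.05. Il15 and Il18 are filled throughout, Il11 and Il6 have open symbols among them, and Lif and Csf1 have 1 filled symbol each.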

How the data were processed

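The authors deposited 1 table of raw counts, whole numbers for each Ensembl gene in each of the 4 libraries. HISAT2, HISAT, HTSeq, DESeq2 and the build mm10 are named in the submitters' processing notes. The version of each tool, the annotation release and the strand setting were not given in the sources used here, so overlapping genes on opposite strands may share reads. Groups and replicate numbers follow the sample titles. For unirradiated replicate 2 the description carries another replicate number than the title, and the column name matches the title. Symbols, coordinates and exons come from GENCODE M21 (GRCm38, the build of mm10), and promoter windows from RefSeq (GRCm38.p6). A window was found for 9 of the 10 cytokine genes (13 windows), and Il15 has none.

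The counts were tested with edgeR 4.0.16 in R 4.3.3 (TMM, filterByExpr by group, robust glmQLFit, glmQLFTest, a term for irradiation alone), with Benjamini-Hochberg adjustment over 15298 genes. The filter left out 11263. Standard errors are the absolute log2 fold change over the square root of F. For most listed genes the prior degrees of freedom were infinite, so their quasi-likelihood dispersion was that pooled over genes. The common biological coefficient of variation was 4.57%. Replicates were not copies of 1 library, with a chi-square per gene of 3.38 (nonIR) and 4.73 (IR). The code was tested on simulated data. DESeq2 1.42.0 and the other alternatives are given under the closing section. Intervals cover counting error only, and floors cover it for the nonIR counts alone.

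The cytokine genes and all lists were chosen with earlier results of these data known. Of each list the text names the 2 most changed genes that pass the test with a mean of at least 1 CPM, and every receptor gene that passes. The text marks other list genes that passed and were picked with values in view, while genes that did not pass are given for their role. A gene that this rule names is not reported here.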

Additional observations from a re-analysis of the deposited data

How the results depend on the processing

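Each result was computed under 9 alternatives: RLE size factors, library totals alone, DESeq2, no filter on low counts, the replicate block, and leaving out each of the 4 libraries. Of the log2 fold changes of 74 listed genes so computed, 617 kept their side of the threshold, 41 lost the call and 8 gained it, and none with a call turned its direction. Over all genes, 3920 to 4307 rose and 4213 to 4389 fell with 1 library left out, against 4655 and 4634. The number of cytokine genes that fell, 1 as reported, was 0 with DESeq2 and 0 to 1 with 1 library left out (0 without nonIR replicate 1 and without IR replicate 2). Of the downstream genes, 2 of which fell as reported, 1 fell with DESeq2 and 1 to 3 with 1 library left out. Of the decay factors, 4 of which rose, 2 to 3 rose with 1 library left out. Of the related cytokines, 1 of which rose, 3 rose with library totals alone and 1 to 2 with 1 library left out (2 without nonIR replicate 2).

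Libraries of the 2 groups share replicate numbers, but their deviations from the group means were not correlated (r = -0.01 over 15298 genes). With 2 libraries a group this cannot tell whether same-numbered libraries were handled together. With the replicate block 4507 genes rose and 4519 fell, and 3 cytokine genes rose and 1 fell, as without it. Il1rl1 lost its call under the block (adjusted p = 0.0501), and no other listed gene did. With 2 libraries a group, leaving 1 out assumes that the lone library varies like the others. Depth limits Il6, Csf2, Il1a and Il1rn, which rest on 9 to 29 counts in all.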
